A study of Mus musculus with 3 samples.

Results

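At embryonic day E13.5, 338 of 5962 cells from mouse back skin carried a transcript of Tnmd together with a transcript of Scx, Otor or Mab21l2, and they are described here as Tnmd and partner cells. They made up 5.67% of the library, with an exact binomial 95% interval of 5.10 to 6.29%. The series held 16235 cells in all. The cells were chosen by measured values: at least 1 unique molecular identifier (UMI, the tag that marks 1 captured transcript) of Tnmd, at least 1 of a partner gene (Scx, Otor or Mab21l2), and none of 5 genes that mark other lineages. Those 5 were Cdh5 for endothelium, Ptprc for leukocytes, Sox10 for Schwann and neural crest cells, Trp63 for epidermis and Elavl3 for neurons. The levels of all these genes in the chosen cells follow from the choice and are given only as a description. The comparison group was formed by 3620 other E13.5 cells with the same 5 genes at 0 and at least 1 UMI of Lum (lumican, a small proteoglycan of fibroblasts), called Lum cells below.

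The study profiled dorsal skin of male C57BL/6 mice, with no mutation or treatment, at E13.5, E16.5 and birth (P0), to follow cell fates while hair follicles form. Each stage was 1 library of droplet-based single-cell RNA sequencing from pooled animals, and the skin was digested with trypsin at E13.5 and E16.5 and with collagenase IV at P0. Because each stage had 1 library and cells of 1 library are not replicates, no difference was tested. All intervals are 95% intervals and cover counting error only. They are exact binomial for shares and exact Poisson for levels. For log2 differences they combine the Poisson bounds of both groups and are approximate.

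Tendons are cords of aligned collagen fibrils that join muscle to bone. Their progenitors arise next to forming muscle and cartilage, where they switch on Scx, a basic helix-loop-helix transcription factor, under signals of the TGF-beta and FGF families. Tnmd encodes tenomodulin, a membrane glycoprotein of tendon and ligament cells that comes on later in the same lineage. Otor encodes otoraplin, a small secreted protein best known from the inner ear. Mab21l2 encodes an intracellular protein of the Mab-21 family, needed for eye and body wall formation.

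In GRCm38, the mouse build of the deposited values (mm10), Tnmd lies on the plus strand at chrX:133850980-133865577 and Otor on the plus strand at chr2:143078473-143081713. Scx, at chr15:76457452-76459458 on the plus strand, lies inside the span of Bop1 on the opposite strand, with 0 shared exon bases. Mab21l2, at chr3:86545581-86548629 on the minus strand, lies inside Lrba on the opposite strand, with 2194 bases of overlapping exons. Promoter windows of 250 bases before to 50 after the RefSeq start were matched in RefSeq (GRCm38.p6) for 3 of the 4 genes, and are shown because Scx protein belongs to a class of factors that bind E-boxes, with the letters CANNTG. That motif reads the same on both strands. Capitals mark its matches, and each line runs 5′ to 3′ on the strand of the gene.
Tnmd: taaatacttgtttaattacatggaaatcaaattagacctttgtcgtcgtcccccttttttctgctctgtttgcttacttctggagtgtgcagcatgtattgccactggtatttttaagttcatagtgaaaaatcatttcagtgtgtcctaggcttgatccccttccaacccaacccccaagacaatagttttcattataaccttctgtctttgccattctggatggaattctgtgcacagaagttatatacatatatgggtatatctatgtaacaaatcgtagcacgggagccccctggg
Otor: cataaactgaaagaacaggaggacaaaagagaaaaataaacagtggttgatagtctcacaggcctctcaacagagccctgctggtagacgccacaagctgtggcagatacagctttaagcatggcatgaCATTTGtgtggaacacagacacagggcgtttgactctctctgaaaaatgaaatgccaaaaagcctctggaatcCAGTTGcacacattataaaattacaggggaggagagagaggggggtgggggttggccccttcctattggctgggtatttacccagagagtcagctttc
Mab21l2: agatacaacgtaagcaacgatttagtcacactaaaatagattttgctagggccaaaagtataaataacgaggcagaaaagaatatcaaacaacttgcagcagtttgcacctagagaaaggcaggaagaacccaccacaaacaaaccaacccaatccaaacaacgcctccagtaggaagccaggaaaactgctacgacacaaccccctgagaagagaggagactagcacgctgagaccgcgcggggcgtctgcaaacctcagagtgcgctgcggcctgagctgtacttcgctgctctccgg
The windows were chrX:133850758-133851057 for Tnmd, chr2:143078143-143078442 for Otor and chr3:86548234-86548533 for Mab21l2. The gene spans above come from GENCODE, whose starts differ from the RefSeq starts used for the windows. The Mab21l2 window lies wholly inside the span given for Mab21l2, and the Otor window ends before the span given for Otor. Otor had 2 matches, while Tnmd and Mab21l2 had 0. Among the 32851 windows of the RefSeq table, 72.3% held at least 1 match and 39.6% at least 2, so the letters are common, and a match describes the sequence only.

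Most of the chosen cells met the rule with few transcripts. Tnmd was at 1 UMI in 155 of the 338 cells, at 2 in 74 and at 3 or more in 109, with a highest value of 24. Among the partners, Mab21l2 was the most frequent. It was the only partner in 100 cells, against 49 cells with Scx alone and 47 with Otor alone, and all 3 partners were found in 32 cells. Just outside the rule, 344 cells with the same 5 genes at 0 had Tnmd without a partner, and 879 had a partner without Tnmd. A further 85 cells had Tnmd and a partner but carried 1 of the 5 lineage genes. When every cell was thinned to 3500 UMIs, 162 cells met the rule. The 5 lineage genes were then also read from the thinned counts, so the 162 need not all be among the 338. At full depth 183 cells met the rule with Tnmd at 2 UMIs or more.

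The chosen cells were deeper than the comparison group. They had a median of 8746.5 UMIs, against 6857 in Lum cells. Globin genes took 1.72% of their UMIs and 1.90% in Lum cells, and mitochondrial genes took 2.81% and 2.83%. In the E13.5 library 84 barcodes also occurred in another library, 5 of them in chosen cells. Lum itself was seen in 71.0% of cells with Ptprc and in 82.2% of cells with Sox10, 2 types that should lack it, and Hba-a1, an alpha globin of red cells, in 98.8 and 99.7% of them. Free RNA in the droplets can give such UMIs, and its part in the membership of single cells was not tested.

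The partner genes went together with Tnmd. Among cells with the 5 lineage genes at 0, Tnmd was seen in 30.4% (26.4 to 34.6%) of the 500 cells with Scx and in 13.8% (12.7 to 14.9%) of the 3849 without it. The corresponding shares were 33.3 and 13.8% for Otor and 34.6 and 12.4% for Mab21l2. Median depth was higher in the cells with a partner, 8675.5 against 6786 UMIs for Scx, so the shares were also taken after thinning to 3500 UMIs. They were then 17.2 and 8.73% for Scx, 18.7 and 8.76% for Otor, and 22.3 and 7.51% for Mab21l2. Only Tnmd was read from the thinned counts here. The cells were still split by partner at full depth, so that split still depended on depth.

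These shares have to be read against cells that should not express the genes. Tnmd was seen in 11.8% of Ptprc cells, 14.7% of Cdh5 cells and 10.6% of Elavl3 cells, against 15.7% of cells with none of the 5 lineage genes. After thinning, the same shares were 1.78, 6.36, 5.90 and 9.70%. The median depths were 9767 UMIs in Ptprc cells, 8392 in Cdh5 cells, 5988 in Elavl3 cells and 6949 in cells with none of the 5. At the level of single UMIs, Tnmd was therefore also seen in cells that carried a gene of another lineage. Of the Ptprc cells 89.3% also carried Col1a1, so carrying such a gene does not settle the lineage of a cell. Mab21l2 was also found in 28.8% of Elavl3 cells (17.8% after thinning). In cells with none of the 5 genes its share was lower, at 14.8% (9.01% after thinning). This partner was thus carried by cells with a neuronal gene as well. Of the overlapping genes on opposite strands, Bop1 was seen in 21.0% and Lrba in 5.06% of cells with none of the 5 lineage genes, while Lrba was seen in 8.63% of Elavl3 cells.

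**Figure D1:**
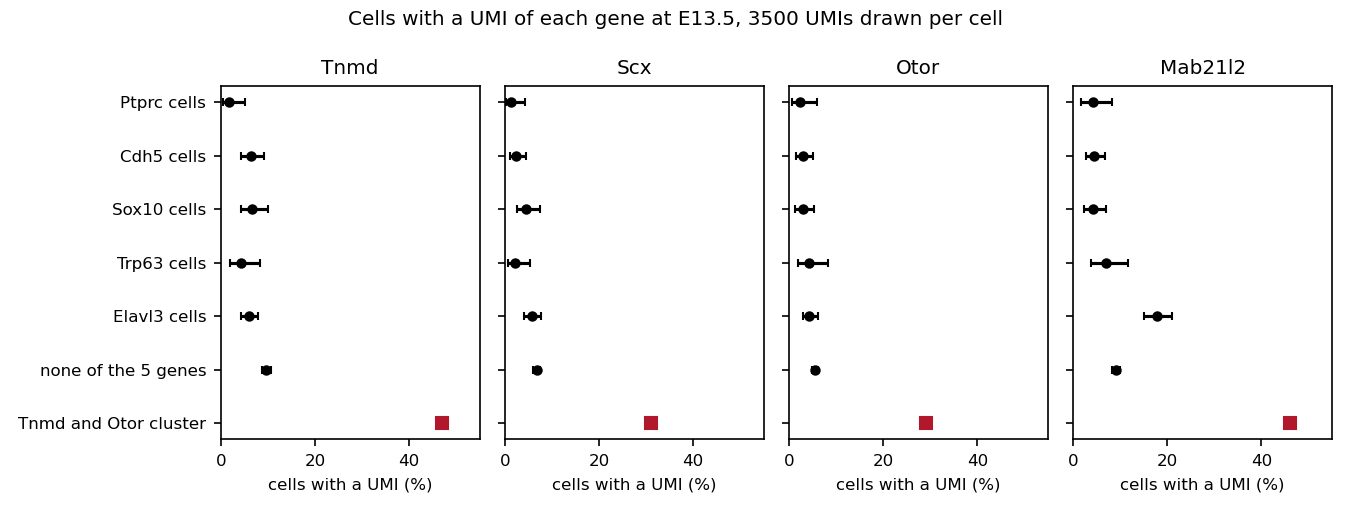
Share of E13.5 cells with at least 1 UMI of Tnmd, Scx, Otor or Mab21l2 (x axis, percent) after each cell was thinned to 3500 UMIs, by the lineage gene the cells carried (y axis). Points are shares with exact binomial 95% intervals, and the red square is the whole Tnmd and Otor cluster, where Tnmd reached 47.0% against 9.70% in cells with none of the 5 genes.

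To see where the chosen cells lay, all E13.5 cells were clustered on variable genes with Tnmd, Scx, Otor and Mab21l2 left out. Of 32 clusters, 20 held at least 1 of the 338 cells. A cluster of 200 cells held 95 of them, 28.1%, and its leading genes by fold were Tnmd, Otor, Mab21l2, Serpine2, Zfhx3, Tgfbi, Prss35, C1qtnf3, Scx and Col11a1. It is called the Tnmd and Otor cluster. It was singled out for holding more of the cells chosen by Tnmd, Scx, Otor and Mab21l2 than any other cluster. The place of these 4 genes among its leading 10 is therefore a description and no independent support for a cell type. Tnmd was seen in 63.0% of its cells and in 47.0% after thinning. Besides the 95 chosen cells, it held 22 with Tnmd but no partner, 61 with a partner but no Tnmd, 13 with neither, and 9 that met the rule except for a lineage gene.

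A second cluster of 138 cells held 37 of the chosen cells and was led by Scx, the homeobox gene Hmx1 and Zfhx3, followed by mitotic genes such as Spc25, Aspm and Cenpf. Its cells were deep, with a median of 13771 UMIs. Both clusters together held 132 of the 338 cells, 39.1%. The other 206 were spread over the remaining clusters, with 36 in one led by globins (Hbb-y, Hba-a1), 35 in one led by C1qtnf3, Ren1 and Igf1, 25 in one led by Ppbp, 18 in one led by Cldn11 and Col9a1, and 17 in one led by the keratin gene Krt17. Thus most cells of the rule lay in clusters led by other genes, and the working label of tendon progenitors is not used for them here. Among the 15 nearest neighbours of a chosen cell, 28.4% were chosen cells too, against 4.52% of the neighbours of Lum cells and 5.67% of the library.

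**Figure D2:**
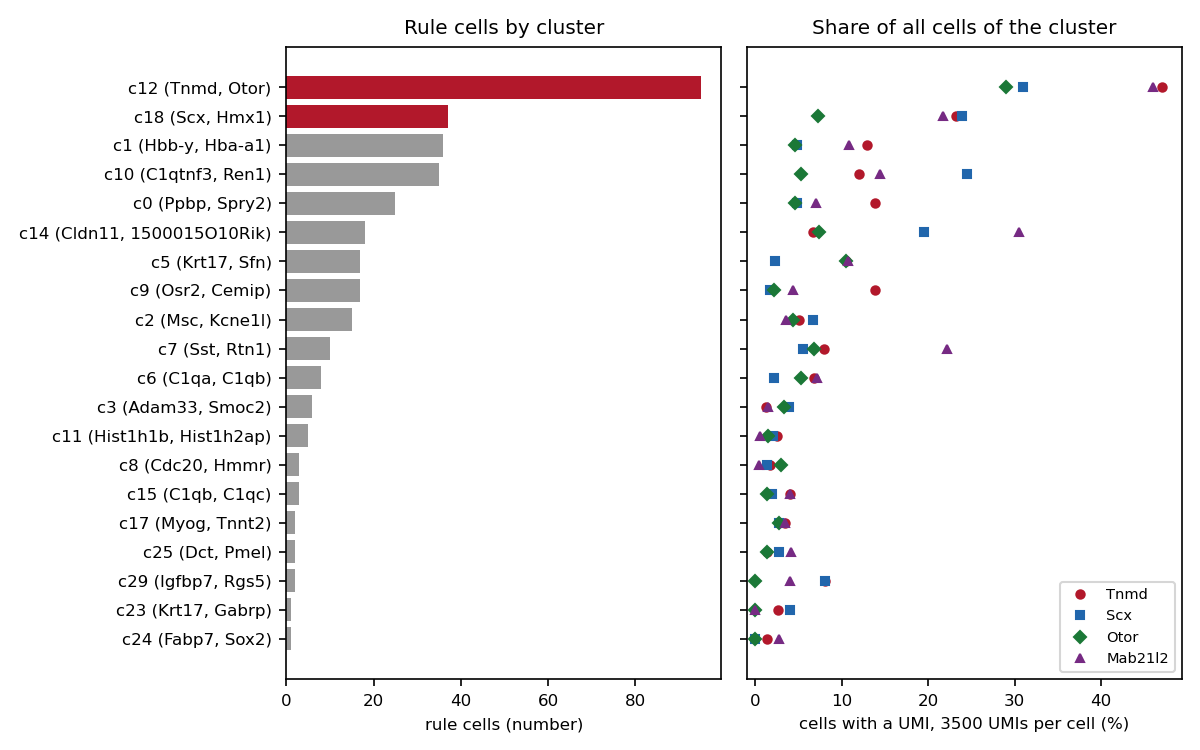
Left, number of Tnmd and partner cells (rule cells, x axis) in each of the 20 E13.5 clusters that held any (y axis, with the cluster's leading 2 genes), with the Tnmd and Otor cluster (95 cells) and the Scx and Hmx1 cluster (37 cells) in red. Right, percent of all cells of the same cluster with a UMI of Tnmd, Scx, Otor or Mab21l2 after thinning to 3500 UMIs, highest in the Tnmd and Otor cluster for each of the 4 genes.

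Against Lum cells, the Tnmd and partner cells had higher summed levels of collagens and secreted matrix proteins of fibrous tissue and cartilage, and lower levels of genes of the dermis and of differentiating muscle. A gene was counted as past the fold when the log2 difference, with 10 CPM added to both levels (CPM, UMIs of a gene per 1000000 UMIs of the group), was at least 1 in size, among genes with at least 50 UMIs in both groups together. Of 12624 such genes, 50 were higher (0.396%) and 10 lower (0.0792%). The count moved with the CPM added, to 208 and 181 with 1 CPM and to 12 and 1 with 50 CPM. The highest 4 were the genes of the rule, as the choice fixes, with Tnmd at 237 CPM against 16.

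The gene with the next largest difference was C1qtnf3, which encodes a secreted protein of the C1q family. It stood at 399 CPM in the chosen cells and 94.0 in Lum cells, a log2 difference of 1.98 (1.89 to 2.06). It was seen in 67.5% of chosen cells and in 27.2% of Lum cells, and after thinning in 50.6 and 17.3%. Serpine2, an extracellular protease inhibitor, differed by 1.74 (673 against 195 CPM) and Zfhx3, a zinc finger homeobox factor, by 1.66 (524 against 159 CPM). Prss35, a secreted protein related to serine proteases, differed by 1.62, and Negr1, a neural cell adhesion protein, by 1.60. Further genes among the 15 largest differences were Col11a1, Tgfbi, Col8a2 (1.48), Trps1 (1.38, a GATA-type factor of cartilage and hair) and Mpped2 (1.33).

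The matrix genes of tendon and other fibrous tissue were mostly higher. Of 36 listed genes 31 had enough UMIs, of which 6 were past the fold upwards and 0 downwards, and their median log2 difference was 0.37, beside −0.0026 over all genes. Col11a1, a minor fibril collagen of cartilage and embryonic tendon, had the largest difference of the list, 1.74 (120 against 29.0 CPM), and was seen in 56.5% of chosen cells and 14.7% of Lum cells. Tgfbi, an extracellular protein induced by TGF-beta, differed by 1.49 (189 against 60.7 CPM). The others past the fold were the collagen-binding proteoglycan gene Fmod (1.14), the matrix glycoprotein gene Tnc (1.06), Col5a2 (1.05) and Col14a1 (1.0). The main fibril collagen genes were abundant in both groups, with Col1a2 at 2045 and 1499 CPM and a log2 difference of 0.45, and Col3a1 at 2488 CPM in the chosen cells and a difference of 0.50. Dcn, a proteoglycan of mature connective tissue, went the other way, with 465 CPM against 759 and a log2 difference of −0.70.

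The tendon regulators Eya1 and Mkx were measured at low levels. Eya1, a transcriptional cofactor, differed by 0.81 (18 against 5.96 CPM). Mkx, a homeobox factor of tendon collagen production, differed by 0.64 (15 against 6.02 CPM). Neither was past the fold, and at such levels the 10 CPM added shrinks a fold.

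Cartilage genes were higher as a group, with 4 of 10 past the fold, 0 lower and a median of 0.66. Col2a1, the main cartilage collagen, differed by 1.29 (51.9 against 15.3 CPM). Sox9, the transcription factor that starts cartilage formation and is shared with progenitors at tendon attachments, differed by 1.12 (59.8 against 22.1 CPM). Col9a2 and Col9a1, which coat cartilage fibrils, differed by 1.13 and 1.11. Of the 338 chosen cells 45 carried both Col2a1 and Sox9, and 87 carried Myod1, Myog or Pax7, genes of muscle precursors. Of the 3620 Lum cells, 82 and 1049 did so, respectively. These co-detections were kept, since no doublet caller was run. Without cells that had Myod1, Myog, Pax7, Col2a1 or Acan in either group, 58 genes were higher and 22 lower.

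Of the 4 signalling lists, those of TGF-beta and BMP held genes past the fold. In the TGF-beta list 2 of 15 genes were higher, the ligand genes Tgfb2 at 1.21 (216 against 88.1 CPM) and Tgfb3 at 1.04 (66.3 against 27.2 CPM), while Tgfb1 was at −0.78. The inhibitor gene Smad7, a target of the pathway, was at 0.66. In the BMP list 2 of 19 were higher, the ligand gene Bmp4 at 1.09 (119 against 50.5 CPM) and the target gene Id2 at 1.10 (421 against 192 CPM). None of 17 genes of the FGF list or of 19 of the Wnt list was past the fold in either direction, and the nearest were Spry2, a feedback inhibitor of FGF receptors, at −0.62 and Dkk1, a Wnt antagonist, at −0.94.

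Genes of the dermis were lower as a group, with a median of −0.39 over 12 genes and 1 of them past the fold. That gene was Crabp1, a retinoic acid binding protein of dermal fibroblasts, at 568 CPM against 1264 and a log2 difference of −1.14 (−1.20 to −1.08). Twist2, a factor of dermal progenitors, stood at −0.85 and Osr1 at −0.84, while Prrx1, a homeobox factor of limb and body wall mesenchyme, was at 0.57. Of 13 muscle genes 1 was lower, Myog, the factor of differentiating myoblasts, at 56.0 against 136 CPM and −1.14. The Lum cells included 1049 cells with Myod1, Myog or Pax7. Of 9 genes that mark derivatives of the somite 0 were past the fold, with Meox1 highest at 0.80, and of 7 meninges genes 1 was higher, Zic4, a zinc finger factor of dorsal neural tissue and somites, at 1.32.

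The lowest values overall were in genes of other lineages or of particular dermal states. Ccl21a, a chemokine of lymphatic endothelium, stood at −1.76 and Cpa3, a mast cell protease, at −1.38, followed by Calb1 (−1.24), Hoxc10 (−1.17), Nrgn (−1.16), Myog and Crabp1. Arhgdib (−1.06), Serpinc1 (−1.02) and Nrp1 (−1.01) completed the 10 lowest. Of the markers of other cell types, 0 genes of the endothelium (5), leukocyte (5), Schwann and neural crest (4), neuron (6), epidermis (7), erythroid (9), bone (3) and pericyte (8) lists were past the fold, and their medians ran from −0.60 for leukocytes to 0.16 for pericytes. Stmn2, a microtubule regulator on the neuron list, was at 0.995, just under the fold, with 152 against 71.1 CPM. Of 6 genes of limb and lateral plate mesoderm 0 were past the fold, with a median of −0.24. Of 11 genes of the response to dissociation 0 were past the fold, with a median of 0.19.

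Since the chosen cells fell into unlike clusters, each comparison was also made for the cells of each cluster group, which was decided after the clusters had been seen. The clusters were formed from the same cells, so these values describe them and are no test. In the 95 cells of the Tnmd and Otor cluster 217 genes were higher than in Lum cells (1.74%) and 320 lower (2.57%) of 12456. In the 37 cells of the Scx and Hmx1 cluster 174 were higher (1.4%) and 151 lower (1.22%) of 12426. In the 206 cells of other clusters 16 were higher (0.128%) and 3 lower (0.0239%) of 12545, and these 16 included the 4 genes of the rule.

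Several genes had their largest differences in the Tnmd and Otor cluster. Tgfbi was at 2.52 in the Tnmd and Otor cluster, 1.73 in the Scx and Hmx1 cluster and 0.69 elsewhere. Serpine2 was at 2.67, 1.75 and 1.15, and Bmp4 at 2.02, 1.52 and 0.32. Mkx was past the fold in the Tnmd and Otor cluster, at 1.07, but at −0.43 (−0.69 to 0.37) in the Scx and Hmx1 cluster, where it had 1 UMI in all. Of 12 dermis genes 6 were lower in the Tnmd and Otor cluster and 1, Prrx1 at 1.03, was higher, with Crabp1 at −2.06 and Twist2 at −1.95. The Wnt and FGF lists, with 0 genes past the fold over all chosen cells, did hold some in this cluster. Of 19 Wnt genes 3 were higher, Dkk2 (1.29), Sfrp1 (1.16) and Frzb (1.08), all of which encode secreted Wnt antagonists or modulators, and 3 were lower, Wnt4 (−1.96), Dkk1 (−1.68) and Tcf7 (−1.18). Of 17 FGF genes Spry2 (−2.05) and Dusp6 (−1.23), feedback inhibitors of the pathway, were lower. In other clusters 0 genes of either list were past the fold.

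Several genes were also past the fold outside both leading clusters. C1qtnf3 was at 2.52, 2.3 and 1.60 and Col11a1 at 2.29, 2.2 and 1.31 in the 3 groups of clusters. Fmod was at 1.13, 0.59 and 1.25, and Tnc at 0.54, 1.65 and 1.05, so both were past the fold in the cells of other clusters. Col2a1 was also past the fold there, at 1.06, as was Aspn, a proteoglycan that restrains mineral deposition, at 1.03. Some of these genes were themselves among the leading 10 of a cluster in this group. C1qtnf3 and Aspn were so in the cluster with 35 chosen cells led by C1qtnf3, Ren1 and Igf1. Fmod and Col2a1 were so in the cluster with 18 chosen cells led by Cldn11. The clusters of this group were not compared with Lum cells one by one. In the cartilage list 4 of 10 genes were higher in the Tnmd and Otor cluster and 2 of 10 in the other clusters.

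Many markers of red cells and muscle, and some of epidermis, were lower in both leading clusters. Hbb-y, an embryonic beta globin, was at −2.22 in the Tnmd and Otor cluster, −2.81 in the Scx and Hmx1 cluster and 0.73 in other clusters. Krt17 was at −2.71, −2.49 and 0.91. Of 7 epidermis genes 3 were lower in the Tnmd and Otor cluster, 4 in the Scx and Hmx1 cluster and 0 in other clusters, and 1 was above 0 in each of the leading clusters. Of 13 muscle genes 7 were lower in the Tnmd and Otor cluster, 8 in the Scx and Hmx1 cluster and 0 in other clusters. Of 9 erythroid genes 8 were lower in the Tnmd and Otor cluster, 8 in the Scx and Hmx1 cluster and 0 in other clusters. The part of free RNA in these globin and keratin values was not tested.

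**Figure D3:**
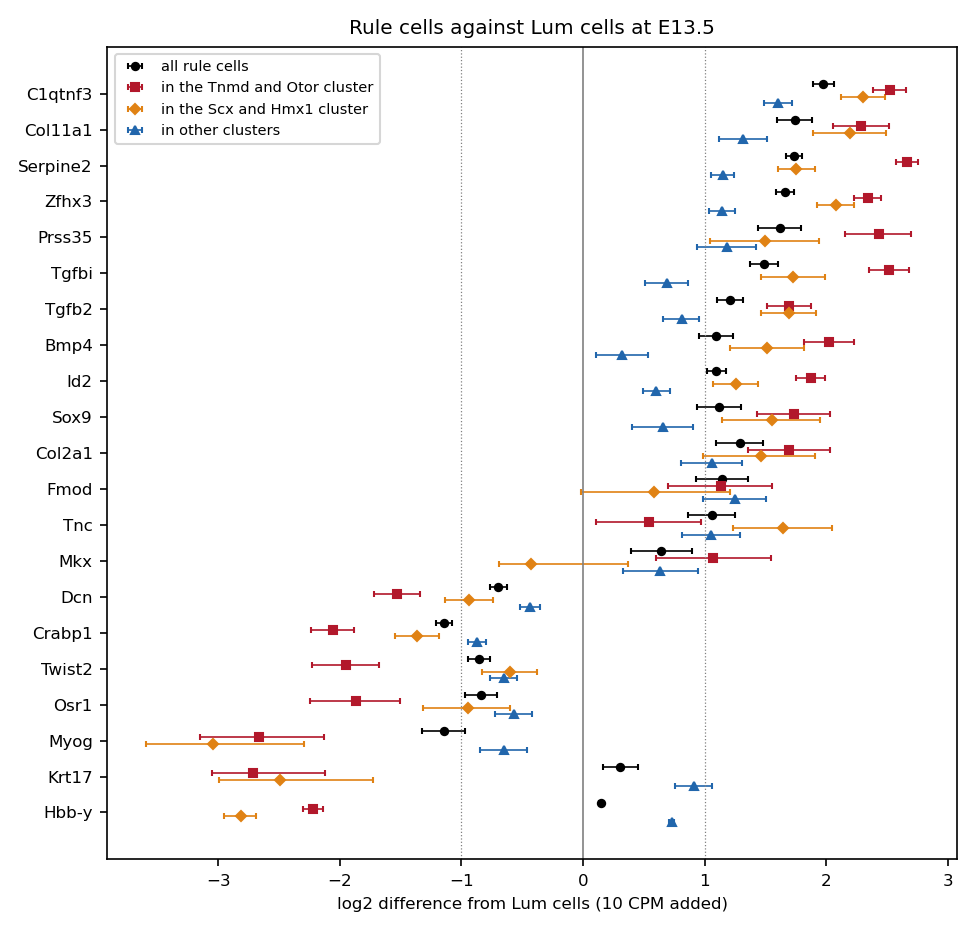
Log2 difference from Lum cells with 10 CPM added (x axis) for 21 genes (y axis), for all 338 Tnmd and partner cells (black), the 95 of the Tnmd and Otor cluster (red), the 37 of the Scx and Hmx1 cluster (orange) and the 206 of other clusters (blue). Bars are approximate 95% counting intervals, and dotted lines mark a difference of 1 in either direction. Tgfbi, Serpine2 and Bmp4 run from 2.02 or more in red to 1.15 or less in blue.

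The chosen cells also differed in the cell cycle. Cells were called G1 where the scores of S phase and of G2 and M phase genes were both at or below 0, after thinning. Of 22 S phase and 28 G2 and M phase genes 0 were past the fold in all chosen cells against Lum cells, with medians of −0.25 and −0.21. Both scores were at or below 0 in 39.3% (34.1 to 44.8%) of the chosen cells and 21.2% (19.9 to 22.6%) of Lum cells. The share was 66.3% (55.9 to 75.7%) of those in the Tnmd and Otor cluster, 33.5% of those in other clusters, and 1 of 37 in the Scx and Hmx1 cluster. G2 and M phase genes took 0.0860% of UMIs in the Tnmd and Otor cluster, 0.824% in the Scx and Hmx1 cluster and 0.387% in Lum cells. Of 28 such genes, 27 were lower in the first cluster and 20 higher in the second. Such a class is cut from a score, and these genes took part in forming the clusters. With G1 cells alone in both groups, 52 genes were higher and 37 lower.

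Levels also differed with the number of Tnmd UMIs and of partner genes. Serpine2 was at 479 CPM in chosen cells with 1 Tnmd UMI, 641 with 2 and 947 with 3 or more, and Tgfbi was at 139, 198 and 246 CPM. Crabp1 went the other way, at 764, 579 and 307 CPM. By number of partners, Sox9 was at 28.3 CPM in the 196 cells with 1 partner, 79.2 in the 110 with 2 and 150 in the 32 with all 3. Median depth in these groups was 7907, 9012.5 and 13002 UMIs, and its part in the Sox9 values was not tested. Both splits use genes of the rule, so they are a description only. In cells just outside the rule, Serpine2 was at 285 CPM with Tnmd but no partner and at 293 with a partner but no Tnmd, between the chosen cells and the 195 CPM of Lum cells. C1qtnf3 was at 208 and 144 CPM in the same cells, and Sox9 was at 19.7 CPM in those without a partner, close to the 22.1 of Lum cells. The share of cells in the Tnmd and Otor cluster was 12.3% at 1 Tnmd UMI, 25.7% at 2 and 52.3% at 3 or more. By number of partners the share did not rise steadily, with 18.9% at 1 partner, 43.6% at 2 and 31.2% at 3. It was 5.23% for cells with Tnmd but no partner.

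**Figure D4:**
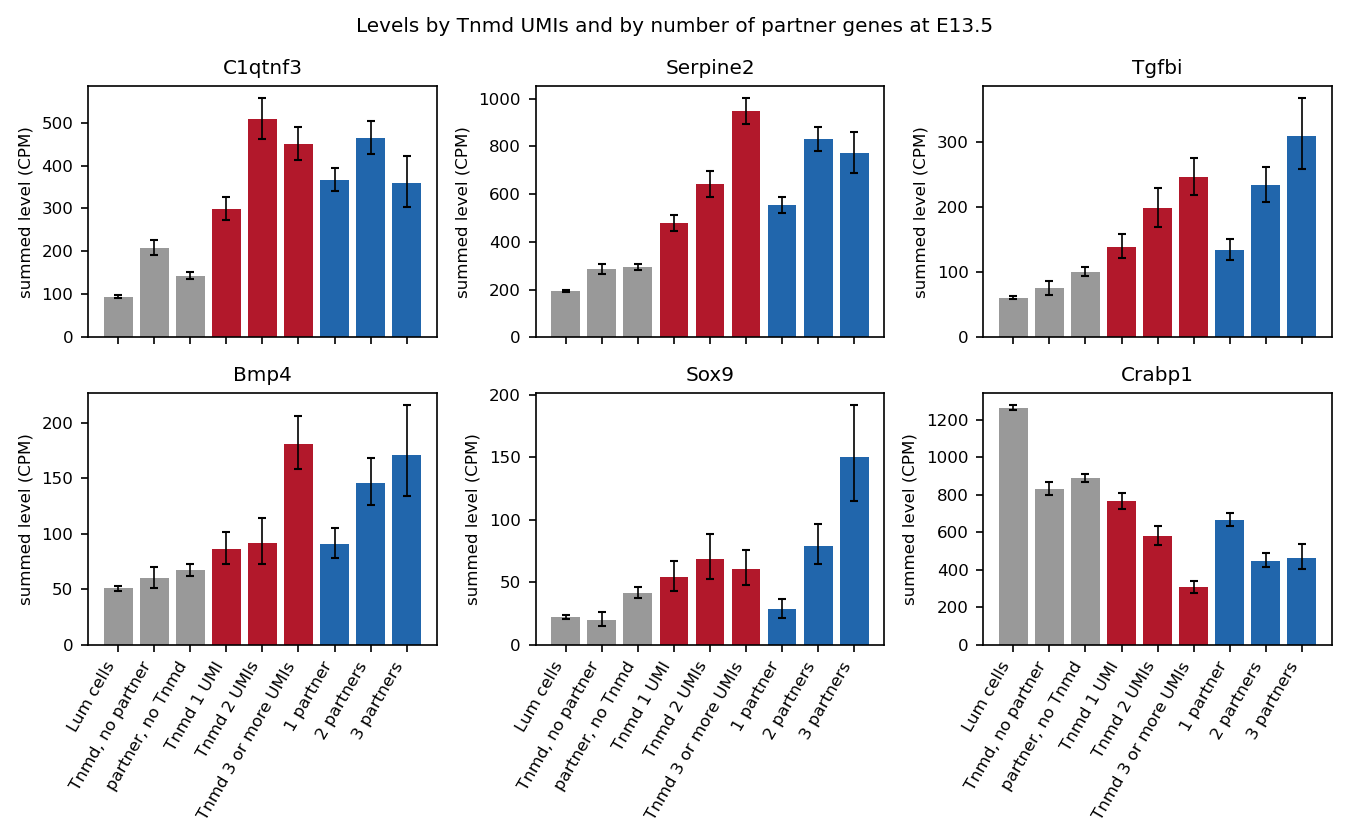
Summed level in CPM (y axis, from 0) of C1qtnf3, Serpine2, Tgfbi, Bmp4, Sox9 and Crabp1 in Lum cells and cells just outside the rule (grey), in Tnmd and partner cells by Tnmd UMIs (red) and in the same cells by number of partner genes (blue). Bars carry exact 95% Poisson intervals, and Serpine2 goes from 479 to 947 CPM and Crabp1 from 764 to 307 CPM between 1 and 3 or more Tnmd UMIs.

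Cells with and without Scx were not alike. The genes named here were picked by the size of the difference, after it was seen. The 152 chosen cells with Scx had more Mpped2 (319 against 110 CPM), more Meox1, a somite homeobox gene (48.4 against 11.4 CPM), and more Sox9 (91.2 against 28.7 CPM) than the 186 without it. They had less globin, with Hba-a1 at 1694 against 6184 CPM, and less Fabp7, a lipid-binding protein of glial cells (9.34 against 73.2 CPM). The 49 cells with Scx as their only partner had more Myog than the other 289 (167 against 38.8 CPM), more Myod1 (79.6 against 23.3 CPM) and more Vgll2, a cofactor of muscle genes (67.4 against 9.14 CPM). C1qtnf3 and Aspn were also higher there, at 764 against 343 CPM and 494 against 183 CPM.

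Cartilage and muscle are the tissues that tendon joins, and cells carrying their genes served as further comparison groups. The 114 cartilage gene cells had Col2a1 and Sox9, and the 1177 muscle gene cells had Myod1, Myog or Pax7, both with the 5 lineage genes at 0 and outside the rule, and 25 cells were in both groups. Differences in these genes follow from how the groups were chosen. Of the cartilage gene cells 82 had Lum, and of the muscle gene cells 1049 did. Those cells were also Lum cells, so these comparison groups were not separate from the Lum cells. Against cartilage gene cells 18 genes were higher (0.212%) and 53 lower (0.624%) of 8498. Beyond Tnmd, the higher ones were led by Msc, a factor of muscle precursors (1.38), Aspn (1.38), C1qtnf3 (1.34) and Lrrtm1 (1.29), each at or above 50.5 CPM in the chosen cells. The lowest were Fabp7 (−3.0), Car3 (−2.94), Matn4 (−2.60), Mia (−2.57) and Col9a3 (−2.51), of which Matn4, Mia and Col9a3 are cartilage genes. All 9 cartilage genes with enough UMIs were lower, with a median of −2.2. The partner genes Scx, Otor and Mab21l2 were not among the 5 highest against cartilage gene cells, although the rule asked for at least 1 of them. Among all cells of the cluster led by Cldn11 and Col9a1, Scx was seen in 30.5%, Otor in 12.2% and Mab21l2 in 47.0%. The partners were thus not particular to the chosen cells.

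Of 28 tendon and fibrous matrix genes, 2 were higher than in cartilage gene cells and 3 lower, with a median of 0.067. None of 14 genes of the TGF-beta list or of 17 of the BMP list was past the fold against cartilage gene cells. Of 8 erythroid genes 5 were higher in the chosen cells, and globins took 0.826% of UMIs in cartilage gene cells against 1.72% in the chosen cells.

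Against muscle gene cells 93 genes were higher (0.842%) and 45 lower (0.407%) of 11048. Besides the genes of the rule, Col11a1 (2.2) and C1qtnf3 (2.14) were among the 5 highest. Myog (−2.98), Gm7325 (−2.31), Tnnt2 (−2.17), Actc1 (−2.10) and Tnni1 (−2.02) were lowest, and of these Tnnt2, Actc1 and Tnni1 encode parts of the contractile apparatus. Of 29 fibrous matrix genes 7 were higher, with a median of 0.72, and of 13 muscle genes 9 were lower, with a median of −1.61. Of 9 cartilage genes 4 were higher, with a median of 0.95.

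At the later stages nearly no cell met the rule, with 5 of 5208 cells at E16.5 and 3 of 5065 at P0, too few for a comparison. None of the 5 cells at E16.5 had Scx, and each had 1 UMI of Otor. Over all cells of a library, Tnmd stood at 31.6 CPM at E13.5 and 8.67 CPM at E16.5, with 14.7 CPM in the P0 library. Scx was at 24.0, 0.740 and 3.78 CPM and Otor at 19.4, 0.951 and 0.601 CPM. Mab21l2 was at 34.9 CPM at E13.5 and had 0 UMIs in the 5208 and 5065 cells of the later stages. A count of 0 allows a share of cells with a UMI of up to 0.0576% at E16.5 and 0.0592% at P0, taken as 3 cells of the total, or 0.0708 and 0.0728% as exact binomial bounds.

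At the later stages Tnmd was mostly seen without its partners, which were themselves rare. At E16.5, 361 cells had Tnmd, 6.93% of the library. They included 0 of the 38 cells with Scx and 7 of the 59 with Otor. At P0, 346 cells had Tnmd, 6.83% of the library. They included 3 of the 145 cells with Scx and 2 of the 19 with Otor. With counts this small, a change in how often Tnmd and its partners went together was not tested. Median depth was 7066.5 UMIs per cell at E13.5, 11021 at E16.5 and 6797 in the P0 library, and the digestion differed at P0. After thinning to 3500 UMIs, Tnmd was seen in 8.62% of cells at E13.5 and 2.46% at E16.5, Scx in 6.00 and 0.192%, Otor in 4.93 and 0.461%, and Mab21l2 in 9.34 and 0%. These shares were thus lower at E16.5 at equal depth and with the same digestion. In the P0 library they were 4.15% for Tnmd, 0.987% for Scx, 0.197% for Otor and 0% for Mab21l2. With 1 library per stage, the library and, at P0, the digestion cannot be told apart from age.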

How the data were processed

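The deposited table holds expression values of 19165 genes in 16235 cells from 3 libraries. Per the labels and the study's methods, the authors aligned reads to mm10 with Cell Ranger 2.2.0 (7000 cells forced per library), left out cells of under 1750 genes and genes found in under 3 cells, and log-normalized in Seurat. The deposited values are the natural log of 1 plus UMIs scaled to 10000 per cell. The table holds more cells than the study states after its filter, although every cell has at least 1750 genes, and all 5962 E13.5 cells were used. UMIs were recovered from the steps of each cell, and all 48197283 values above 0 were whole within 0.001. No other per-sample columns were present.

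UMIs were summed over the cells of a group and divided by the group's total to give CPM. A log2 difference was taken with 10 CPM added, among genes with at least 50 UMIs in both groups. The lists' genes Cnmd, Snorc, Mymk and Nkx3-2 were not in the table under these names and were not used. For thinning, 3500 UMIs were drawn per cell without replacement. Clusters came from 2000 variable genes without the 4 rule genes, 30 components, 15 neighbours and Leiden at resolution 1 (scanpy 1.11.5, leidenalg 0.10.2, Python 3.11.15). No doublets were removed.

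The members, gene lists and comparisons were chosen with earlier results of these data known. Genes were named by rule: the rule genes, list members, and the 15 highest and 10 lowest differences from Lum cells (5 and 5 for the other groups). Exceptions are marked in the text. The stage comparison was not run because the later stages had fewer than 50 cells of the rule. The calculation was tested on simulated data of the Lum comparison: 81.9% of 116 genes planted at a log2 change of 1.5 and 100% of 84 at 2.5 passed the fold, and 0 of 12399 unchanged genes did. Group totals were drawn as Poisson counts from the profile of the Lum cells, and changes were planted only in genes abundant there. The simulation had no variation between cells, free RNA or choice of cells by detected genes. It checks the calculation and gives no error rate for the real comparison. 1 gene that the naming rule covers is not reported here.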

Additional observations from a re-analysis of the deposited data

How the results depend on the processing

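With 1 library per stage the limits lie in which cells are counted and in the CPM added. The number of cells was 183 with Tnmd at 2 UMIs or more and 162 after thinning. Genes higher and lower than in Lum cells numbered 81 and 33 with Tnmd at 2 UMIs or more, 208 and 181 with 1 CPM added, 12 and 1 with 50 CPM, 217 and 320 for the Tnmd and Otor cluster alone, and 16 and 3 for other clusters alone. The last pair of settings was chosen after seeing the data. The count of lower genes alone moved to 20 without Otor as partner, 18 with every cell weighted equally, 37 in G1 cells, 22 without cells with muscle or cartilage genes and 16 with at least 2500 genes per cell. Cpa3 changed direction in G1 cells, to 0.26. Against cartilage gene cells the counts were 85 and 96 with 1 CPM, 15 lower with at least 200 UMIs, and 80 higher with Col2a1 at 2 UMIs or more. Against muscle gene cells they were 292 and 200 with 1 CPM. The cluster richest in chosen cells held 22.5% of them at resolution 0.5 and 15.4% at resolution 2. The cause of these moves was not tested. With Lum cells drawn in equal numbers from each decile of the depth of the chosen cells (median 8745 UMIs), 58 genes were higher and 11 lower. Of 680 recomputed values of 40 named genes, 415 stayed within the counting interval, 264 left it, and the value of Cpa3 named above changed direction. No paired analysis was possible because each stage is a single library.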

Other observations

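The Hox genes, which pattern the body from head to tail, were not on a list and were looked at after Hoxc10 and Hoxd4 had been seen among the genes past the fold. The log2 differences from Lum cells were above 0 in all 9 measured Hox genes of paralog groups 4 to 6, with a median of 0.39, and 1 of them, Hoxd4, was past the fold. Hoxa4 was lowest at 0.13 (−0.07 to 0.38). Hoxd4 was at 69.3 against 28.9 CPM (1.03) and Hoxa5 at 46.4 against 20.2 CPM (0.90). Of 9 genes of groups 7 to 9, 2 were above 0 and 7 below, with a median of −0.20. Both genes of group 10 were below 0, with Hoxc10 at 16.1 against 48.9 CPM (−1.17). In the Tnmd and Otor cluster the medians were 0.83 for groups 4 to 6, −0.54 for 7 to 9 and −1.57 for group 10.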
